A study of Arabidopsis thaliana with 12 samples.

Results

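The transcriptional response of Arabidopsis root tips to 2 h of BAP was measured over both genotypes of the study at once, as the difference between the 6 BAP libraries and the 6 mock libraries, which together are all 12 libraries of the series. Each treatment held 3 libraries of Col-0, the wild type, and 3 of ago10-1, a mutant of the small RNA-binding protein AGO10 made by insertion of T-DNA into Col-0. Seedlings stood 6 days after germination when they received a spray of 1 µM BAP or, as mock, no treatment. Their root tips were harvested after 2 h. Mock seedlings were not sprayed, so BAP and the spraying itself cannot be told apart in any of the values below. Every library was made from a pool of many root tips, so fewer cells of a type and less RNA per cell cannot be told apart in any of the values below. The BAP effect was fitted with genotype and replicate 1 against the other replicates as additive terms, and a gene was called higher or lower where the Benjamini-Hochberg adjusted p of that fit (limma) was under 0.05. All differences are BAP minus mock on the scale of log2 of the normalized count plus 1, and folds are taken on that scale.

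BAP (6-benzylaminopurine) is a synthetic cytokinin. Cytokinins bind histidine kinase receptors at cell membranes, which pass a phosphate through the AHP phosphotransfer proteins to the type-B response regulators (type-B ARRs), the transcription factors of the pathway. Among the genes these activate are the type-A ARRs, which lack the DNA-binding part and dampen the signal. In the root, cytokinin promotes the differentiation of cells leaving the meristem and takes part in the patterning and the formative divisions of the vascular cylinder.

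The libraries held 19394256 to 34899796 reads on genes. AGO10 stood at 568 to 1051 normalized counts in the 6 Col-0 libraries and at 130.4 to 187 in the 6 ago10-1 libraries, so every library matched its genotype label while the mutant kept part of the transcript, and its BAP effect was -0.08 (95% interval -0.43 to 0.26). The first principal component held 53.6% of the variance, and the replicate 1 BAP libraries of both genotypes lay at its low end (-91.0 and -79.0, the other 10 between -38.1 and 68.6). The replicate 1 term alone passed the threshold in 6982 of 19206 genes tested, and 22 of the 36 genes called for BAP were among them. Whether replicate 1 was grown or handled apart is not given in the sources used here. Values are therefore also given within replicate 1 (2 BAP against 2 mock libraries) and within the other replicates (4 against 4).

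After 2 h of BAP, 34 genes were higher and 2 were lower. These are 0.177% and 0.0104% of the 19206 genes tested. At an unadjusted p under 0.01, the threshold the study used, 480 genes (2.5%) were higher and 166 (0.864%) lower. The genes that rose did so by 1.31-fold to 5.60-fold. In 65 genes (0.338% of those tested) all 6 BAP libraries lay above all 6 mock libraries, and in 41 (0.213%) all lay below. Of the 34 genes that rose, 17 were of the first kind, and neither gene that fell was of the second. In all 34 the BAP libraries lay above the mock libraries both within replicate 1 and within the other replicates. This separation was found in 152 genes, or 0.791% of those tested. The calls were made on these same libraries, so both kinds of separation are part of the choice and are no separate evidence. Without any term for replicate 1, 1 gene was called, AT5G16010, and without the replicate 1 libraries 6 were called, namely 4CL3, SAHH2, KAT5, FLS1, AT5G17040 and AT5G62210. In both of these fits all 36 kept their direction. When each of the 12 libraries was left out in turn, 19 of the 36 stayed called every time, from 4CL3 to IAGLU in the order of p, while the other 17 lost the call without at least 1 library, with adjusted p of up to 0.182 in limma. The call was kept least often by ABS2, in 1 of the 12 fits, and by PSB28, UGT84A1, SULTR3;4 and AT1G06550, in 2 each. The members just inside the threshold were AT1G06550 and AT4G01870 (adjusted p = 0.0458 and 0.0463 in limma), and those just outside were MS2 (AT3G03780), a methionine synthase gene (log2 difference 0.49, adjusted p = 0.0530 in limma), and MSRB9 (-0.33, adjusted p = 0.0699 in limma).

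Of the gene lists examined, the one with the most called genes was the synthesis of flavonols, antioxidant phenolics of the root tip that are known to modulate auxin transport. The pathway takes 4-coumaric acid, activated by 4CL, through chalcone synthase (TT4), chalcone isomerase (TT5) with its helper CHIL, flavanone 3-hydroxylase (F3H) and flavonoid 3'-hydroxylase (TT7) to flavonol synthase (FLS1), and sugars are then added by UGT78D1, UGT78D2 and further transferases. Of 13 genes on the flavonol list, 9 reached a mean of 10 and were tested, and 6 of these rose (TT4, TT5, TT7, CHIL, FLS1, UGT78D2). All 9 had a positive difference, with a median of 0.97, against 52.2% positive and a median of 0.01 over all genes tested. This list, like the others, was chosen with earlier results of these data known, so it is not independent evidence.

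4CL3, which supplies the flavonoid branch with activated 4-coumarate, had the smallest p of all genes. Its normalized counts in mock were 195 in replicate 1 and 661 and 444 in the other 2 libraries of Col-0, and 152, 598 and 515 in ago10-1. After BAP they were 550.3, 1739 and 1538 in Col-0 and 539, 1341 and 1442 in ago10-1. Each replicate 1 library was the lowest of its group, and the replicate 1 BAP libraries lay within the range of the other mock libraries but above both mock libraries of their own replicate. The difference was 1.52 ± 0.11 (SE, 2.88-fold, adjusted p = 0.000129 in limma), with 1.66 within replicate 1 and 1.46 within the others.

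FLS1, the enzyme that makes the flavonol itself, stood at 1645 to 4672 in mock (median 3290.0) and at 5286 to 9690 after BAP (median 7844). All BAP libraries lay above all mock libraries. The difference was 1.36 ± 0.12 (SE, adjusted p = 0.000427 in limma). TT4, the entry enzyme, rose from a median of 9505 (4461 to 16780) to 23820 (14360 to 30070), and 5 of 6 BAP libraries lay above every mock library. TT5 rose from a median of 439 (181 to 801) to 1813 (702 to 2170), or by 3.40-fold, the largest fold of the list. CHIL and TT7 rose by 1.96-fold each, and UGT78D2, a flavonoid 3-O-glucosyltransferase, by 1.60-fold. In TT5 and CHIL both replicate 1 BAP libraries lay within the range of the mock libraries of the other replicates, in UGT78D2 that of Col-0 did, and in TT7 both lay below that range, while within each replicate set BAP and mock were apart. UGT78D2 stayed called in 3 of the 12 fits that left out a library.

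RHM1, a rhamnose synthase that makes the sugar donor, missed the threshold (log2 difference 0.32, adjusted p = 0.0748 in limma), although BAP lay above mock within both replicate sets. MYB12, a transcription factor that activates this pathway in the root, stood at 0.20 (95% interval -0.25 to 0.64), and UGT78D1 at 0.04 (-0.74 to 0.81), intervals that include no change as well as a rise of 0.5 on the log2 scale. Its relatives MYB11 and MYB111 were at or below 4.77 normalized counts in every library and were not tested. F3H, whose step lies between TT5 and FLS1, was listed at 0 to 7.30 normalized counts, and the rhamnosyltransferase gene AT1G06000 at 0 in all 12 libraries. Annotated genes on the opposite strand cover 94.5% of F3H and 99.6% of AT1G06000, and whether the counting used strand is not given in the sources used here, so the levels of both cannot be read from this table. The part of this overlap in the listed values was not tested.

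**Figure D1:**
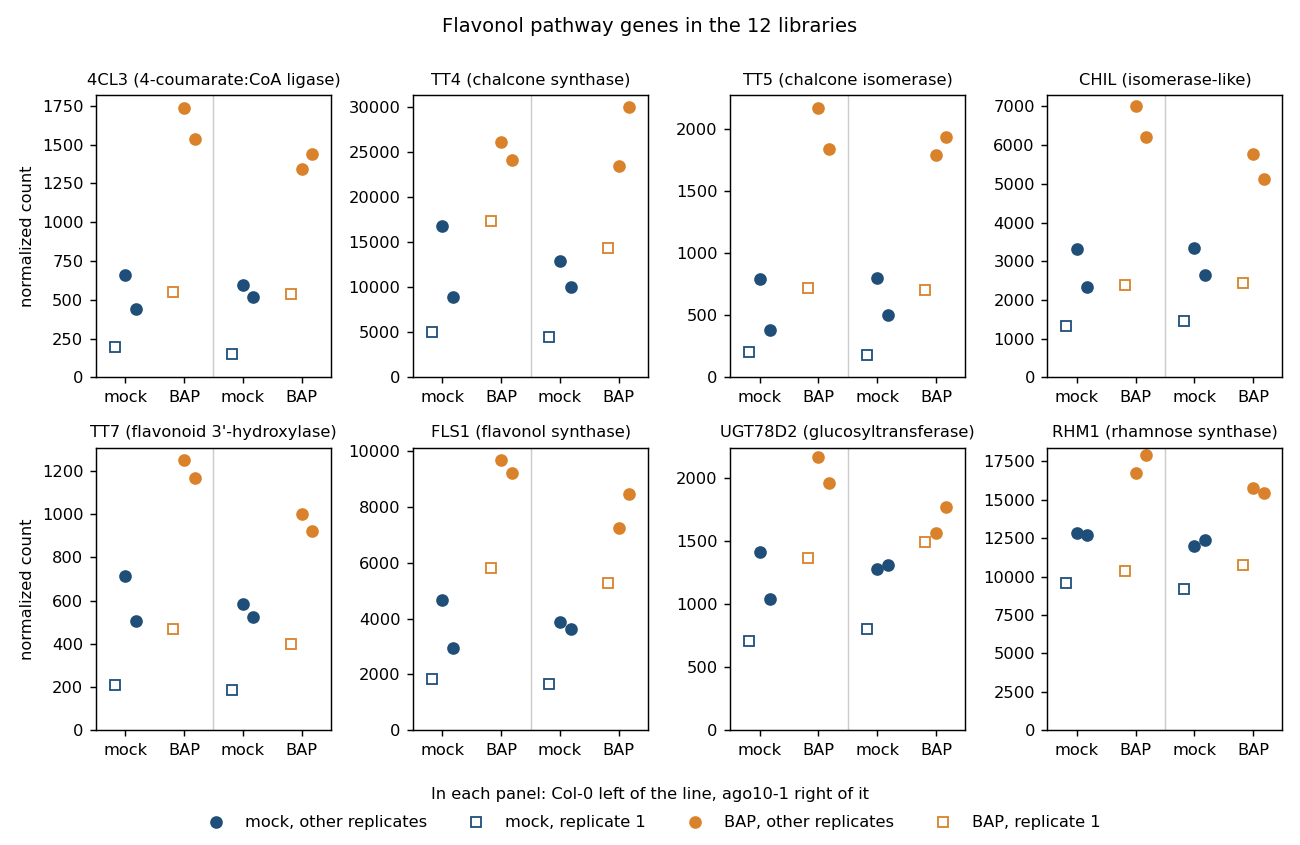
Normalized counts (y axis, linear from 0) of 8 genes of flavonol synthesis, 4CL3 and RHM1 included, in the 12 libraries, by genotype and treatment (x axis). Each symbol is 1 library, blue for mock and orange for BAP, and open squares are replicate 1. Within each symbol type BAP lies above mock in every panel, and the squares lie lower than the circles of the same colour.

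The 250 bases before the annotated start of 6 genes that rose are printed to show the letters that known regulators of such genes read. The 6 were picked for display and each holds a match, while TT5, TT7 and UGT78D2, which also rose, hold none. The sequences are RefSeq's TAIR10.1, 5′ to 3′ on the strand of the gene. In the first 5, capitals mark the G-box (CACGTG), read by bZIP and bHLH factors, and the AC element, read by MYB factors of phenylpropanoid genes (spelled ACCTACC in one form and ACCTAAC in another, with ACCAACC searched as a further form and ACCAAAC as the last), in the printed strand or as the reverse complement. In LTI78, a gene of cold and drought responses, they mark the dehydration-responsive element (CCGAC). Both strands were searched, and matches that overlap are marked as 1 run.
4CL3 (chr1:24171636-24171885, minus strand): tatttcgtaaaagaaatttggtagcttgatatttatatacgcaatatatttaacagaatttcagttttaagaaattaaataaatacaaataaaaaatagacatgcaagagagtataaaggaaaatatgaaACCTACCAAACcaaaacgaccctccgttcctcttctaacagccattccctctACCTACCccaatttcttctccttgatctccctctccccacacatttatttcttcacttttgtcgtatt
KAT5 (chr5:19817956-19818205, minus strand): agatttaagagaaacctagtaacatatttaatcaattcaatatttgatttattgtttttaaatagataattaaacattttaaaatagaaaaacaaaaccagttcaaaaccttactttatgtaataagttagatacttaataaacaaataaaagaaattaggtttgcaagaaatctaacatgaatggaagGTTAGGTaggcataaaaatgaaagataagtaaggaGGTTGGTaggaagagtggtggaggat
FLS1 (chr5:2803583-2803832, plus strand): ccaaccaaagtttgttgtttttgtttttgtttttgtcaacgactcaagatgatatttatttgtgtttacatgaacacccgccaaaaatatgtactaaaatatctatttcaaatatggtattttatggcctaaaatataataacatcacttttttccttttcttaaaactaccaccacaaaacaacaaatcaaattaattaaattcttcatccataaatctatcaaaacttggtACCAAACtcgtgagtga
CHIL (chr5:1563036-1563285, plus strand): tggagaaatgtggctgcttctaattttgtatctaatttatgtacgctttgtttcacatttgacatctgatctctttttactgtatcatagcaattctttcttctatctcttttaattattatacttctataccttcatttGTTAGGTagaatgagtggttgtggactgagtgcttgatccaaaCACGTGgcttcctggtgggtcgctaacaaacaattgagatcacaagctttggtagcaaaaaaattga
TT4 (chr5:4488226-4488475, plus strand): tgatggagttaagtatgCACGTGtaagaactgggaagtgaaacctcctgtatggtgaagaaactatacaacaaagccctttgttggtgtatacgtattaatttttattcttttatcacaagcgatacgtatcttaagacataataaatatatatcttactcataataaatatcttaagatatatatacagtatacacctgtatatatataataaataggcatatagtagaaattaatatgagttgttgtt
LTI78 (chr5:21240467-21240716, plus strand): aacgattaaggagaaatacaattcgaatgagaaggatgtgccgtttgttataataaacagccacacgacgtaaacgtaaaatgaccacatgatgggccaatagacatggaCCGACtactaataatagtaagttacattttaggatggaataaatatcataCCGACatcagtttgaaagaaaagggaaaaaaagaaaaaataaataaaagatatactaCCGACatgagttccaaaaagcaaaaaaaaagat

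The 4 genes of smallest p, 4CL3, SAHH2, KAT5 and FLS1, each held an AC element, as did 10 of the 34 genes that rose (29.4%), against 14.3% of the 19155 regions of the same length read before genes tested. A G-box stood before 7 of the 34 (20.6%, against 7.24%), among them TT4, CHIL, ERD9 and PRN. Among the 479 regions before genes higher at p under 0.01 the shares were 17.3% for the AC element and 9.81% for the G-box, and among the 166 before genes lower at that p they were 13.3% and 15.1%. CCGAC stood before 4 of the 34 (11.8%, against 12.9%), and the core read by type-B ARRs (AGATCT or AGATCC) before 1 (2.94%, against 11.8%). TT5, TT7 and UGT78D2 held none of the 4 motifs. A match of letters is a description of the sequence only, and no shares were tested.

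UGT84A1, which glucosylates hydroxycinnamic acids, stood at 46.1 to 278 in mock (median 184) and at 395 to 844 after BAP (median 569), with no overlap. The difference was 1.98 ± 0.34 (SE, adjusted p = 0.0431 in limma), but it was unequal between the replicate sets, 3.21 within replicate 1 and 1.36 within the others. The UDP-glycosyltransferase gene AT5G17040 rose from a median of 52.8 (17.1 to 71.1) to 156 (47.2 to 189). It lies 659 bases from UGT78D2 on chromosome 5 (5605201 to 5607128), and reads that fit both of these related genes may be split between them. A further member of the superfamily, AT4G27560, rose by 2.21-fold, and IAGLU, an auxin glucosyltransferase, rose from a median of 1260.0 (1056 to 1327) to 1757 (1684 to 2316), again with no overlap. UGT84A2, which makes sinapate glucose, had a difference of 0.98 ± 0.19 (SE) and missed the threshold (adjusted p = 0.0906 in limma).

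On the list of general phenylpropanoid and lignin genes, 2 of 20 tested rose (4CL3 and UGT84A1), 6 had p under 0.01, and all 20 were positive, with a median of 0.41. Over all genes tested 0.177% rose, 2.5% were higher at p under 0.01 in limma and 52.2% were positive. C4H, the hydroxylase that makes 4-coumaric acid, stood at 9046 to 13610 in mock and at 13770 to 19550 after BAP, did not overlap and still missed the threshold (0.50 ± 0.09, SE, adjusted p = 0.0748 in limma). Without the replicate 1 libraries 18 of the 20 were positive and their median was 0.18, so the size of this shift depended on replicate 1. The median of the flavonol list was 0.90 in that fit, with 8 of 9 positive. Calls in that fit fell from 6 to 1 on the flavonol list and from 2 to 1 on the phenylpropanoid list. With no replicate block both lists held 0.

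KAT5, a thiolase of fatty acid breakdown whose transcript is known to follow flavonoid genes, rose from a median of 373 (80.8 to 681) to 1793 (247 to 2199), a difference of 1.87 ± 0.16 (SE, 3.66-fold, adjusted p = 0.000427 in limma). AT5G62210, annotated as an embryo-specific protein, rose from a median of 232 (9.79 to 357) to 796.5 (45.0 to 938). In both genes replicate 1 stood far below the other replicates in mock and after BAP alike. SAHH2, which recycles S-adenosylhomocysteine after methyl transfer, rose by 1.75-fold, from a median of 8461 to 13670.

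The largest fold among all genes called was that of RNS1, a secreted ribonuclease induced by wounding and phosphate starvation. It stood at 23.63 to 90.0 in mock (median 51.5) and at 69.7 to 624 after BAP (median 291). The difference was 2.49 ± 0.30 (SE, 5.60-fold, adjusted p = 0.00392 in limma), with 2.16 within replicate 1 and 2.65 within the others. AT5G16010, of the steroid 4-dehydrogenase family, stood at 124 to 284 in mock and at 436 to 918.5 after BAP, with no overlap (3.71-fold).

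Cold and abscisic acid response genes followed. KIN1 rose from a median of 57.2 (28.4 to 84.4) to 193 (141 to 255.5) without overlap, and LTI78 from 185 (59.0 to 305) to 349.7 (280.5 to 1678). The LTI78 value of 1678 was that of Col-0 BAP replicate 1 and the next, 1047, that of ago10-1 BAP replicate 1, and the other 4 BAP libraries lay between 280.5 and 353. KIN1 has a close copy, KIN2, next to it, and reads that fit both may be split. KIN2 itself stood at 1.55 ± 0.31 (SE, adjusted p = 0.109 in limma), with 2.82 within replicate 1 and 0.91 within the others. Of 15 genes tested on this list 2 rose, 4 were higher at p under 0.01 and 13 were positive (median 0.59). Over all genes tested 0.177% rose, 2.5% were higher at p under 0.01 in limma and 52.2% were positive. The median of the list was 0.21 without replicate 1, with 10 of 15 positive. When 1 library was left out, KIN1 stayed called in 7 of 12 fits (adjusted p up to 0.0768 in limma, without ago10-1 BAP replicate 1) and LTI78 in 3 (up to 0.143, without ago10-1 mock replicate 1).

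On the list of sulfate assimilation genes, 1 of 23 tested was called and 20 were positive, with a median of 0.24, or 0.04 without replicate 1. Over all genes tested 0.177% were called higher and 52.2% were positive. The gene called on the list was APR3, a reductase of the pathway, which rose from a median of 2110.0 (1621 to 2523) to 3163 (2801 to 3409), with no overlap and close replicates (1.51-fold, adjusted p = 0.00169 in limma). SULTR3;4, of the sulfate transporter family but not on that list, rose from 43.1 (28.7 to 80.0) to 125 (93.5 to 162). SERAT2;1, which makes the precursor of cysteine, and APR2 stood at 0.48 and 0.53 and missed the threshold (adjusted p = 0.127 and 0.176 in limma). Of 24 tau-class glutathione S-transferase genes, enzymes that couple glutathione to reactive compounds, 12 had p under 0.01, all higher, and 22 were positive (median 0.44). Of all genes tested, 2.5% were higher at that p. Without replicate 1, 17 of the 24 were positive and the median of the list was 0.31. ERD9, also known as GSTU17, was the only member called and rose from a median of 151 (121 to 275) to 444 (394 to 518). Genes of this family are close copies in tandem rows, and reads may be split between them. GSTU1 stood at 0.56 ± 0.12 (SE) and GSTU25 at 0.54 ± 0.13 (SE).

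Transporters and genes of varied function made up the rest. AT1G47530, of the MATE efflux family, rose from a median of 2075 to 2890.0, AT5G17010, of the major facilitator transporters, from 636 to 1058, and PRN, a pirin, from 1019 to 1607, each with no overlap. Others without overlap were the calcium-binding protein gene CP1, GCL1, AT2G23910 (a Rossmann-fold protein), AT5G54145, AT1G06550 and AT4G01870. EDF3, an ethylene response DNA-binding factor, rose by 1.66-fold, AT5G22020 by 1.77-fold, the photosystem II gene PSB28 by 1.84-fold and ABS2, of the B3-type transcription factors, by 1.31-fold, the smallest fold called. GCL1 and IAGLU share 13.7% and 12.1% of their length with an annotated gene on the opposite strand. In 6 more called genes the overlap with a neighbour was 4.81% of the length or less.

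The genes that fell were HSP90.1, a heat-inducible chaperone, and AT5G02000, whose product is uncharacterized. HSP90.1 stood at 562, 458 and 461.5 in Col-0 mock and at 741.5, 429 and 478 in ago10-1 mock. After BAP it stood at 292, 245 and 306 in Col-0 and at 447, 309 and 205 in ago10-1. Only ago10-1 BAP replicate 1 reached the mock range. The difference was -0.81 ± 0.13 (SE, adjusted p = 0.0302 in limma), and 5 of 8 heat shock genes tested were negative. AT5G02000 fell by 0.61 on the log2 scale, from a median of 392 to 283. With 1 library left out, HSP90.1 stayed called in 5 of 12 fits and AT5G02000 in 6, and between 0 and 8 genes were lower in all. The next genes on the lower side missed the threshold and changed little. EXPB1, a cell wall-loosening expansin, stood at 2610.0 to 2982 in mock and at 1995 to 2441 after BAP without overlap (-0.33 ± 0.06, SE, adjusted p = 0.0748 in limma). The other 9 named by the rule were MSRB9, SMT3, PPC2, P5CS1, UTR1, PAR2, AT5G35740, AT4G25250 and AT1G09750, with differences between -0.27 (SMT3) and -0.48 (PAR2). The largest negative difference of all genes tested was that of ERF13, a transcription factor gene induced by wounding, at -2.05 ± 0.45 (SE, adjusted p = 0.137 in limma). It stood at 9.45 to 65.5 in mock and at 2.12 to 14.3 after BAP, and the 3 ago10-1 mock libraries (61.2, 49.0 and 65.5) were its highest.

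The genes of cytokinin signalling itself stood below the threshold. Of 10 type-A ARRs tested, limma called 0, 4 had p under 0.01 and 6 had p under 0.05, all higher. Over all 19206 genes tested, 2.5% were higher at p under 0.01 in limma, and 2347 had p under 0.05 in either direction. edgeR called 0 of the 10 and DESeq2 2, against 32 and 308 of all genes tested. Of the 10, 8 were positive (52.2% over all genes tested). Their median was 0.35 (0.38 in Col-0 and 0.35 in ago10-1), and without replicate 1 it was 0.18. ARR8 (AT2G41310, RR3 in the reference) had the smallest p of them. It stood at 2003 to 2604 in mock (median 2252) and at 2689 to 3473 after BAP (median 3052), with no overlap, and its difference was 0.43 ± 0.09 (SE, adjusted p = 0.110 in limma). ARR3, ARR4 and ARR9 stood at 0.35, 0.36 and 0.41 (adjusted p between 0.217 and 0.220 in limma).

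ARR5, ARR7 and ARR15 are the genes most often used to report a cytokinin response. ARR5 had a median of 868 (470.3 to 1011) in mock and 879.7 (695 to 1424) after BAP, a difference of 0.24 with a 95% interval from -0.14 to 0.62. ARR15 stood at 0.25 (-0.35 to 0.84), with 0.07 outside replicate 1. ARR7 was low, with 2.36 to 22.1 normalized counts in mock and 35.4 to 49.5 in 5 of the BAP libraries, while Col-0 BAP replicate 3 held 6.37. Its difference was 1.41 ± 0.55 (SE, adjusted p = 0.366 in limma), which at these counts is not past the threshold.

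Of the receptors and phosphotransfer genes, AHP1 stood at 0.87 ± 0.26 (SE), 1.65 within replicate 1 and 0.47 within the others. WOL, the receptor also called AHK4, stood at 0.30 ± 0.09 (SE). AHP6 (HP6 in the reference), an inhibitor of the pathway that marks protoxylem, stood at 38.3 to 75.6 in mock and at 19.1 to 58.4 after BAP (-0.73 ± 0.23, SE). Of the 8 receptor and phosphotransfer genes tested limma and edgeR called 0 and DESeq2 1, with 4 at p under 0.05 in limma. Of all 19206 genes tested, DESeq2 called 308, and 2347 had p under 0.05 in limma. Of 6 type-B ARRs 5 lay between -0.18 and 0.03, and the other was ARR14 (RR14 in the reference; -0.85 ± 0.27, SE), which stood at 23.2 to 30.2 in mock and at 8.21 to 25.0 after BAP. UGT76C2, which glucosylates cytokinins, stood at 0.52 ± 0.16 (SE), and its replicate 1 values after BAP (591 and 567.5) were above all others, 175 to 281.

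**Figure D2:**
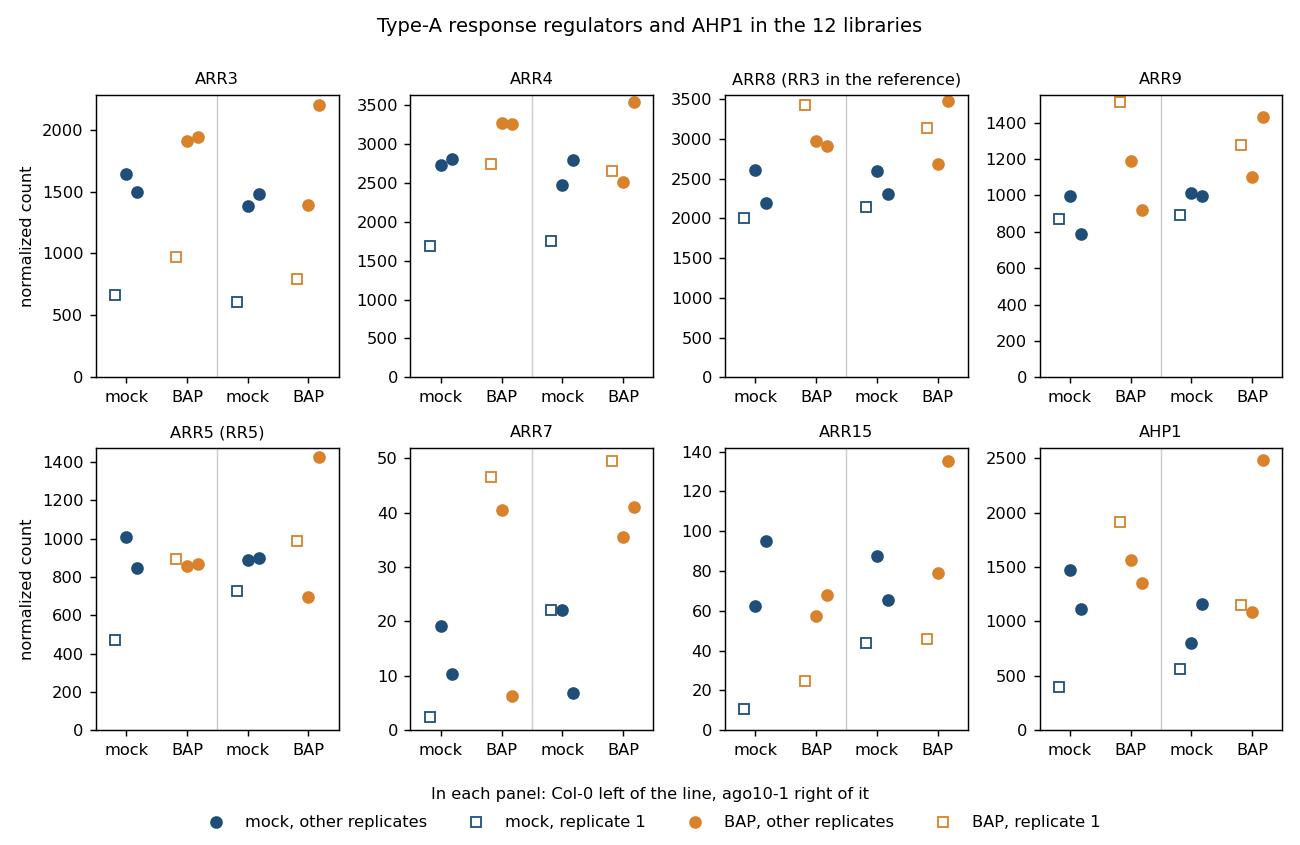
Normalized counts (y axis, linear from 0) of 7 type-A response regulator genes and AHP1 in the 12 libraries, by genotype and treatment (x axis), with symbols as in the plot of flavonol genes. ARR8 is apart between mock and BAP, ARR5 and ARR15 overlap, and ARR7 is higher after BAP in all but Col-0 BAP replicate 3.

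Of 15 ethylene genes tested, limma and edgeR called 0, DESeq2 called 3, 5 had p under 0.05 in limma, and 14 were positive (median 0.29, and 0.34 with 11 positive without replicate 1). Of all 19206 genes tested, DESeq2 called 308, 2347 had p under 0.05 in limma, and 52.2% were positive. EBF2, which targets the ethylene regulator EIN3 for breakdown and is itself induced by ethylene, stood at 975 to 1248 in mock and at 1383 to 1873 after BAP, without overlap (0.44 ± 0.09, SE, adjusted p = 0.110 in limma). ACS7, of the ethylene precursor synthases, stood at 1.15 ± 0.30 (SE), with 420.5 in ago10-1 BAP replicate 3 as its highest value. IAGLU was the 1 of 24 auxin genes called, and IAA2, an early auxin response gene, stood at 0.49 ± 0.12 (SE). Of 18 jasmonate genes 9 were positive (median -0.02), and of 16 wounding and touch genes 6 (median -0.15).

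PEN3, annotated as a putative pentacyclic triterpene synthase, had the second largest positive difference named here, 2.25 ± 0.41 (SE), and lay just outside the threshold (adjusted p = 0.0699 in limma). It stood at 14.2 to 86.1 in mock and at 99.9 to 353 after BAP, with no overlap. The triterpene list as a whole had 10 of 11 positive with a median of 0.40, but without replicate 1 only 4 of 11 were positive and the median was -0.03. THAS1, the thalianol synthase gene, stood at 1.75 within replicate 1 and at 0.01 within the others.

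**Figure D3:**
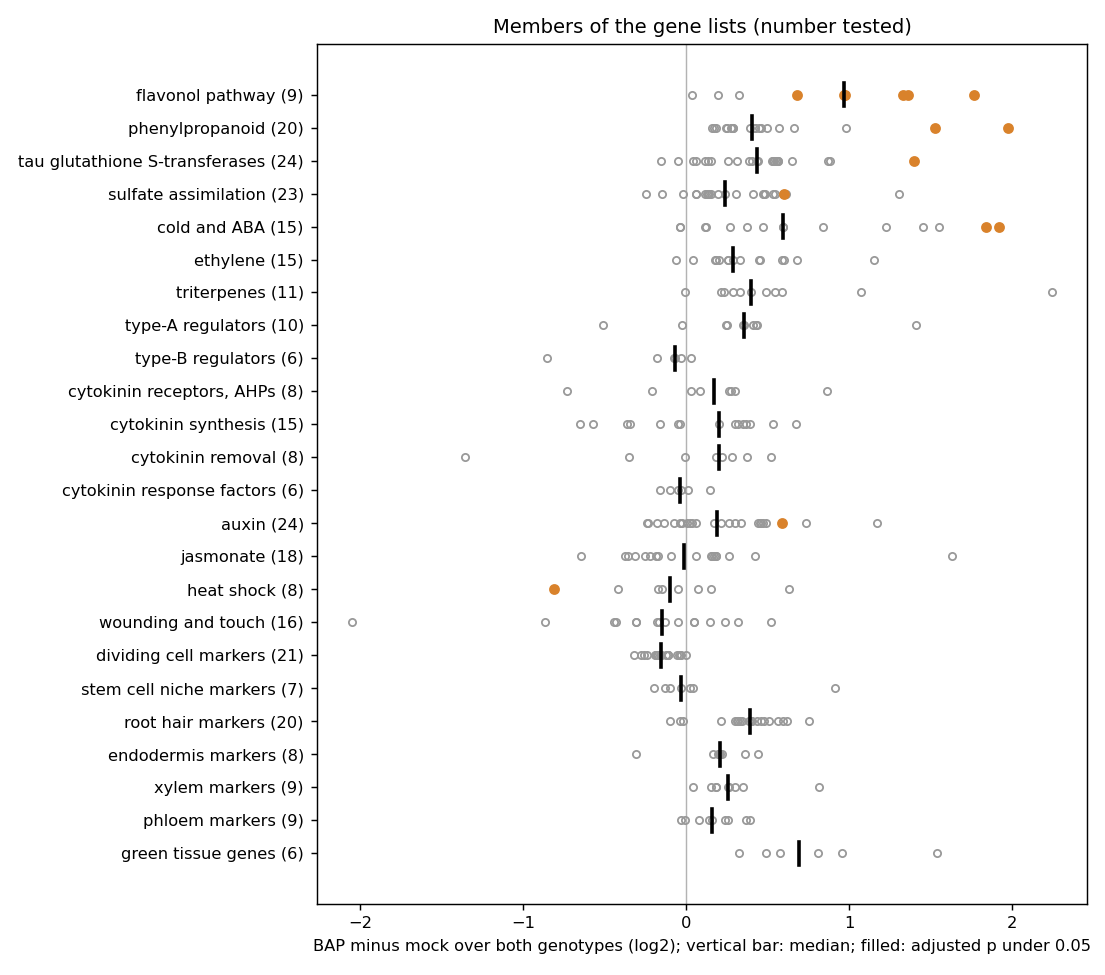
BAP minus mock on the log2 scale over both genotypes (x axis) for every tested member of 24 gene lists (y axis, number tested in brackets). Each circle is 1 gene, filled where its adjusted p was under 0.05, and the bar is the median. The flavonol list holds 6 filled circles and a median of 0.97, and all 21 dividing cell markers lie below 0.

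The 36 genes called moved the same way in both genotypes. In a fit of ago10-1 alone all 36 had p under 0.01, and in a fit of Col-0 alone 30, all with the pooled sign. The size was larger in ago10-1 in 15 of the 36. These are the libraries the calls were made on, so the shared sign is part of the choice. The difference of the BAP effect between genotypes is another contrast. It reached an adjusted p under 0.05 in 0 genes in limma, in edgeR and in DESeq2. In limma, 12 of the 19206 genes tested had p under 0.01, where chance alone would give about 192. The p-values of this contrast thus ran high. At p under 0.05 in limma there were 182 genes, and 1 of the 36 was among these 182. This was AT4G27560, with 1.50 ± 0.26 in Col-0 and 0.79 ± 0.20 in ago10-1 (SE), a difference between genotypes of -0.72 ± 0.29 (SE, adjusted p = 1 in limma). For 4CL3 the effects were 1.56 ± 0.18 and 1.49 ± 0.14 (SE), and for HSP90.1 -0.81 in each genotype. A p that misses the threshold does not show that the genotypes respond alike: for UGT84A1 the difference between genotypes was -0.50 with an SE of 0.69.

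Since the calls were made on these libraries, a shared sign between replicate sets is also part of the choice. All 36 called genes had the same sign within replicate 1 and within the other replicates. In 27 of them the difference was larger in size within replicate 1, among them UGT84A1, AT5G16010 (2.40 and 1.64), TT4 (1.73 and 1.13), KIN1 (2.41 and 1.67), SULTR3;4 (1.96 and 1.16), GCL1 (1.66 and 0.95) and AT2G23910 (1.79 and 1.04). In 9 it was larger within the others, namely KAT5 (1.49 and 2.06), CHIL (0.80 and 1.05), RNS1, AT5G17040, AT5G17010, AT5G22020, PRN, EDF3 and ABS2. Whether these sizes differ between replicate sets was not tested.

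**Figure D4:**
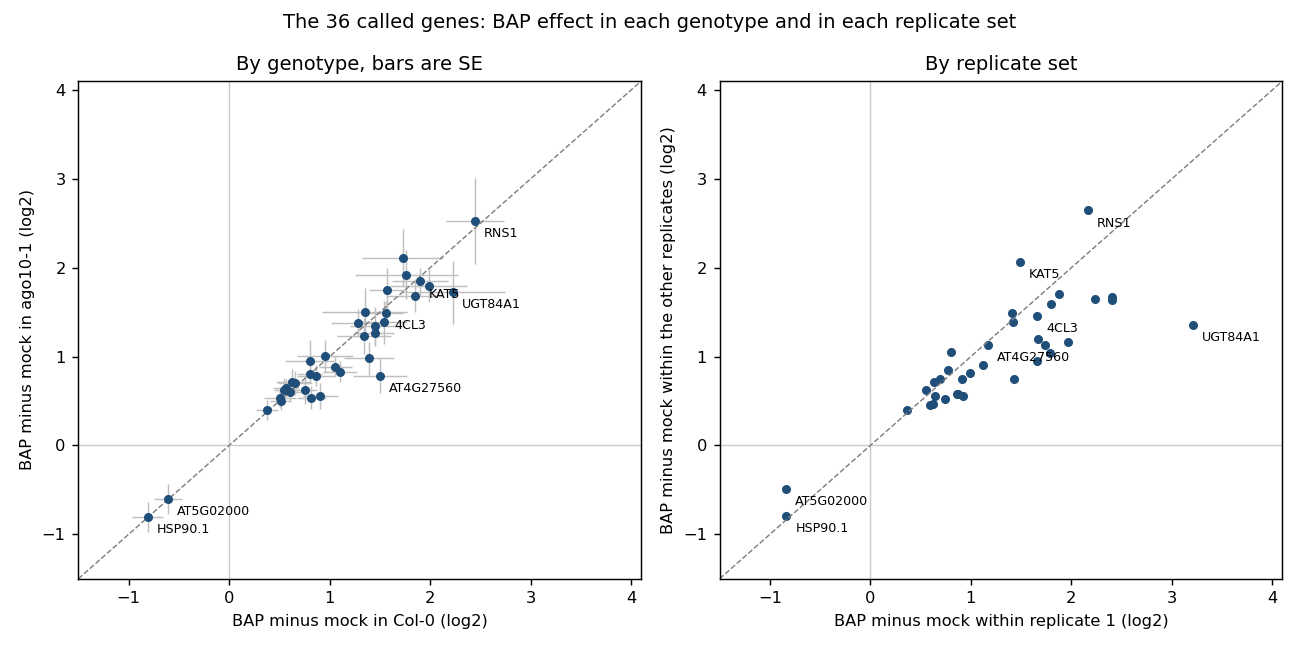
The BAP effect of the 36 called genes on the log2 scale. Left, ago10-1 (y axis) against Col-0 (x axis), with SE bars. Right, the 8 libraries of the other replicates (y axis) against the 4 of replicate 1 (x axis). The dashed line marks equal effects. All points lie in the same-sign quadrants, and UGT84A1 lies farthest from the line on the right, at 3.21 and 1.36.

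Markers of cell types moved with the treatment in part of the libraries. All 21 markers of dividing cells had a negative difference (median -0.16). limma, edgeR and DESeq2 called 0 of them. In limma 3 of the 21 had p under 0.05, against 2347 of all 19206 genes tested, in either direction. Their summed level was 11570 to 14810 in mock and 9903 to 13490 after BAP, and was lowest in ago10-1 BAP replicate 3 and Col-0 BAP replicate 1. Without ago10-1 BAP replicate 3, 18 of 21 were negative. Of 20 root hair markers 17 were positive (median 0.39), with sums of 47480 to 95180 in mock and 57670 to 120400 after BAP. The median was 0.23 without ago10-1 BAP replicate 3 and 0.19 without replicate 1. RSL4, the main regulator of hair growth, stood at 0.59 ± 0.17 (SE, adjusted p = 0.223 in limma). All 9 xylem markers and 7 of 8 endodermis markers were positive, with medians of 0.25 and 0.21, or 0.12 and 0.04 without replicate 1. Without ago10-1 BAP replicate 3 the endodermis median was 0.12, and without Col-0 mock replicate A 0.34. The endodermis sum was 39200 and 33320 in the replicate 1 BAP libraries and 9789 to 24480 in the other 10. Genes of green tissue, which a root tip should hold at low levels, summed to 311 to 889.5 in mock and to 372 to 2311 after BAP, and the highest was again Col-0 BAP replicate 1. None of the defining markers of the root cap, endodermis, xylem or dividing cells was at 0 in all libraries. The part of these marker levels in the response of the flavonol, cold and other genes was not tested. The flavonol sum was 19440 and 18440 in the replicate 1 mock libraries and 39300 and 36280 after BAP, where the endodermis sum went from 24480 and 24240 to 39200 and 33320. In the other replicates the flavonol sum was 29400 to 41320 in mock and 57180 to 65760 after BAP, and the endodermis sum 10100 to 19490 and 9789 to 22600.

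**Figure D5:**
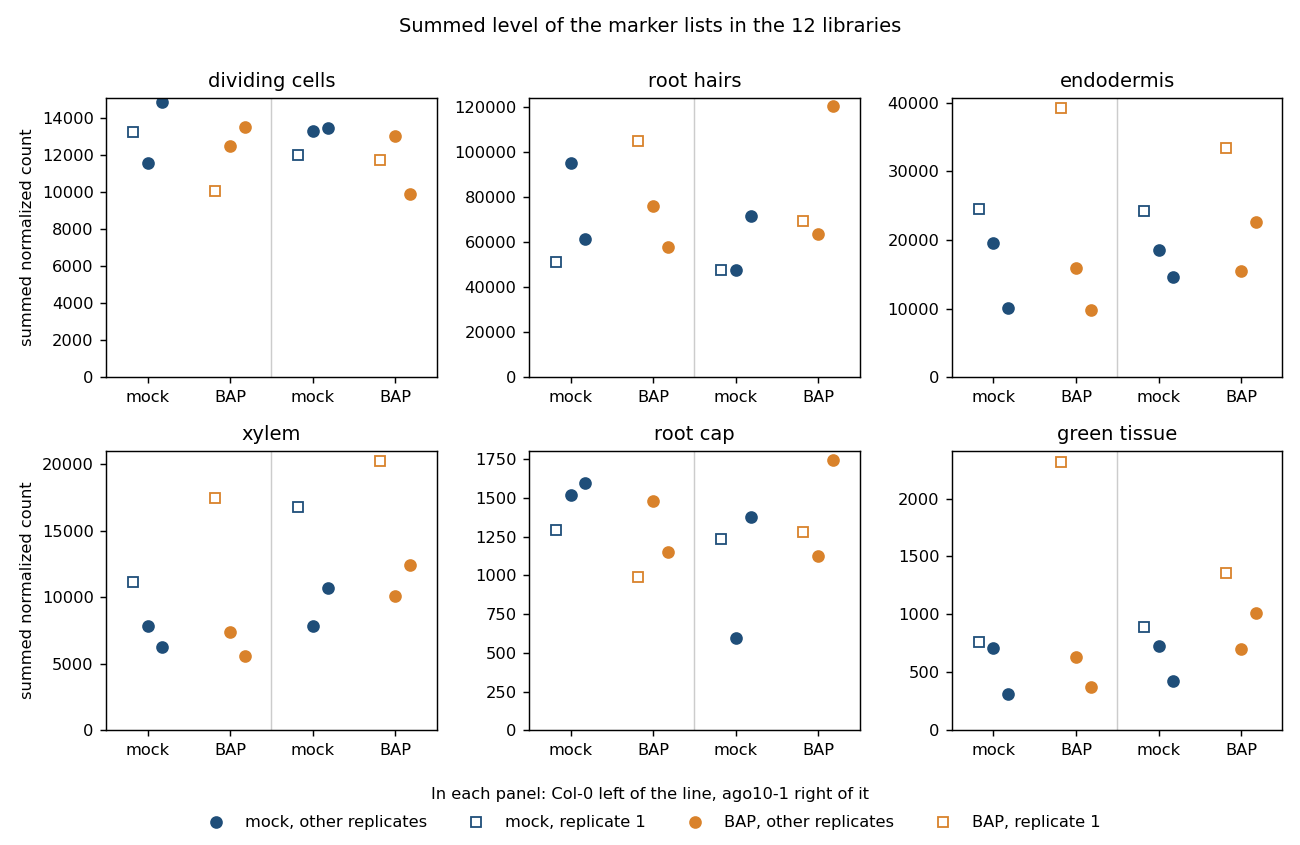
Summed normalized counts (y axis, linear from 0) of 6 marker lists in the 12 libraries, by genotype and treatment (x axis), with symbols as in the plot of flavonol genes. The replicate 1 BAP libraries have the highest endodermis, xylem and green tissue sums, and the root cap sum of ago10-1 mock replicate 2, 594, is the lowest.

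The genes that rose were not spread over the chromosomes as the genes tested were. Chromosome 5 held 16 of the 34 (47.1%) and 23.4% of the genes tested, while chromosome 1 held 4 (11.8%) and 26.3%. Only a few were neighbours. AT5G17040 and UGT78D2 lay next to each other, AT5G17010 and AT5G17040 had 1 tested gene between them, KIN1 and AT5G16010 had 3, and UGT84A1 and IAGLU 6. These shares are a description and were not tested.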

How the data were processed

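RNA of root tips was sequenced from 12 libraries. Per the labels and the methods of the study, the authors used STAR for alignment, featureCounts with a TAIR10 annotation for counting, and DESeq2 for normalization. The deposited signal is reads per gene divided by the size factor of the library. A factor that makes all values whole was recovered for each library, and 100% of the values came out whole at a tolerance of 1e-06. Whether the counting used strand is not given in the sources used here. A pair of Col-0 mock columns carried the same heading. Their group is certain but not their number, and they are called replicates A and B.

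The log2 of the deposited value plus 1 was fitted with limma 3.58.1 (limma-trend, two-sided, R 4.3.3) over 19206 of 32833 genes, those with a mean of at least 10. The terms were treatment, genotype and replicate 1 against the others, and p-values were adjusted over all genes tested by Benjamini-Hochberg. The replicate 1 term, the members, the 28 gene lists (407 genes) and the rule for named genes were chosen with earlier results of these data known, so no list is independent evidence of its direction. Named genes were the 12 largest changes in each direction among called genes with a mean of at least 50 and the same sign in both genotypes (filled up by smallest p), the 10 of smallest p, up to 4 of smallest p per list, and AGO10, ARR5, ARR7 and ARR15. Called genes outside this rule are also named.

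Across genes, deviations from group means correlated at 0.551 to 0.777 between libraries of number 1. The range was 0.252 to 0.453 for number 2, 0.287 to 0.449 for number 3 and -0.718 to 0.657 for pairs of unequal number. The pair at 0.657, Col-0 BAP replicate 3 and ago10-1 BAP replicate 2, lay above every pair of number 2 or 3. Among pairs of unequal number without a replicate 1 library the range was 0.0152 to 0.657, which overlaps those of numbers 2 and 3. These values show replicate 1 standing apart, and cannot decide whether libraries of number 2 or 3 were paired. No pair of libraries of a group was as alike as counting alone would make it (mean chi-square of 13.8 to 177 per gene). Fewer reads widen the error of low genes, and all errors given are those between libraries. The alternatives used other terms, samples, pseudocounts, filters and thresholds, TMM, edgeR 4.0.16 and DESeq2 1.42.0, the last 3 on recovered reads. The fit was tested on simulated data. Gene coordinates in the tables of the study equalled those of the RefSeq reference for 418 of 418 genes.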

Additional observations from a re-analysis of the deposited data

Results flagged for a closer look

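Among the 149 genes called or named, each treatment group of 6 libraries was searched for a single library far from the others, measured as its gap to the next value over the range of the group on the log2 scale. Of 298 groups 14 had one, or 4.70%, and chance flags about 1 in 20. None was a group of a gene called for BAP. The calls were made on these libraries and favour genes with little spread, so this is no separate check. The search also misses a pair of far libraries, such as the replicate 1 BAP libraries in LTI78.

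In the BAP libraries, ARR7 stood at 6.37 in Col-0 BAP replicate 3 (next 35.4), AHP3 at 1931 in ago10-1 BAP replicate 3 (next 1361), OPR3 at 779 in Col-0 BAP replicate 1 (next 1021), FER1 at 2224 in ago10-1 BAP replicate 1 (next 3258), PLT2 at 149 in Col-0 BAP replicate 1 (next 307) and AT4G25250 at 2244 in Col-0 BAP replicate 2 (next 1766). In the mock libraries, AHP6 (HP6) stood at 38.3 (next 61.2) and LOG3 at 33.0 (next 60.5) in Col-0 mock replicate A, EXPA1 at 418 (next 732), ARR15 at 10.6 (next 44.0) and CRF5 at 37.8 (next 27.6) in Col-0 mock replicate 1, and AT5G48570 at 885 in Col-0 mock replicate B (next 551). Both root cap regulator genes BRN1 (NAC015) and BRN2 (NAC070) were low in ago10-1 mock replicate 2, at 137 and 128 against a next value of 406.5 and 406. The root cap list is small, and its summed level in that library is given with the markers in the report.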

How the results depend on the processing

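No gene named changed sign while past the threshold under any alternative, and all 36 called genes kept their sign in every one. The counts did change, also that of genes whose BAP effect differed between genotypes at p under 0.01, which was 12. With genotype as the only covariate and no replicate block, 1 gene was higher and 0 lower (221 and 64 at p under 0.01, 4 for the difference between genotypes). With the full replicate number as a block, 33 and 32 were higher and 1 lower under either assignment of the pair of Col-0 mock libraries, and no other count moved by over 1.5 times. With the mean of both genotype effects from a fit with interaction, 0 were lower. Col-0 libraries alone gave 0 higher and 0 lower (59 and 8 at p under 0.01), and ago10-1 libraries alone 2 and 0 (53 lower at p under 0.01). These fits hold 6 libraries in place of 12. Without replicate 1 of every group, 6 were higher and 0 lower (135 and 41 at p under 0.01, 18 for the difference between genotypes). Leaving out 1 library gave 20 to 128 higher, 0 to 8 lower, 271 to 1078 higher and 75 to 350 lower at p under 0.01, and 10 to 61 genes for the difference between genotypes. The highest counts of calls came without Col-0 mock replicate A, where PEN3, C4H, LTI30, UGT84A2, KIN2 and ARR8 were also called, and the cause was not tested. DESeq2 on recovered reads called 254 higher and 54 lower (723 higher at p under 0.01, 31 for the difference between genotypes), while edgeR called 32 in all. With no filter on low values 4 were lower, and 65 differed between genotypes at p under 0.01. At an adjusted p under 0.01, 18 were higher and 0 lower, and at 0.1, 52 and 8. A mean of at least 50 gave 8 genes for the difference between genotypes. Over all genes the median difference lay between 0.00 and 0.01 under every scaling, and 10 of 28 list medians changed sign under at least 1 alternative, the flavonol median not among them.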
